A study of Mus musculus with 18 samples.

Results

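The loops described here join positions on a mouse autosome that lie 50 kb to 1 Mb apart and that no single domain of the authors' list contains. They were chosen from the coordinates of the deposited loop and domain lists: a loop was taken when no domain on its chromosome held the midpoints of both its anchors. There were 2074 such loops among the 20926 loops of the list, and they made up 11.5% (95% Wilson interval 11.03 to 11.96%) of the 18054 autosomal loops in that span range. The other 15980 loops of the range were held by at least 1 of the 12571 autosomal domains and serve as the comparison. The former are called unheld loops below and the latter held loops.

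The series measured chromosome contacts by Micro-C, in which chromatin is cut by micrococcal nuclease and ends that are close in the nucleus are ligated and sequenced. All samples were G1E-ER4 cells, a mouse erythroblast line derived from cells without the erythroid factor GATA1 and carrying a hormone-controlled form of it. In every sample the cells were of a subline in which LDB1 carries an auxin-inducible degron, and the labels do not say whether this subline is a single clone. The groups were 9 untreated samples and 9 samples given auxin for 4 h, with no other agent named in the labels. The series has a single list of each kind, with no value per sample, per group or per loop. Neither the effect of auxin nor the depth behind a loop can therefore be given. No replicate error exists for any value, and the spread over the 19 autosomes is given where it helps. Wilson intervals cover the counting of loops only. Loops share anchors and are not independent, and the choice of these loops already used both lists, so no test was made and differences from held loops are given as descriptions.

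Domains, also called topologically associating domains, are stretches of chromosome that contact themselves more than their surroundings. Many of their boundaries are places where the ring complex cohesin, which reels in chromatin to form loops, is stopped by the DNA-binding protein CTCF. Contacts between enhancers and promoters mostly stay within a domain, yet boundaries are leaky and some contacts pass over them. LDB1 is an adaptor without DNA-binding activity of its own that joins erythroid factors such as GATA1, TAL1 and LMO2 and, by binding to itself, can bring distant enhancers and promoters together. The lists do not record which protein occupies an anchor.

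Loops that no domain holds did, with few exceptions, run over a domain boundary, and many held loops did so too. Of the 2074 unheld loops, 1996 (96.2%) had at least 1 domain start or end between their anchor midpoints, with a median of 3 boundaries. The 78 exceptions lay in stretches without any domain. By the rule, an unheld loop with an anchor inside a domain must have an edge of that domain between its anchor midpoints. The high share among unheld loops is therefore a consequence of how they were chosen. Among the held loops, 6197 (38.8%) also had a boundary between their anchors, because the list is nested and a large domain can hold a loop that runs over the edge of a smaller domain. The difference was wide for short loops and narrow for long ones. From 50 to 100 kb, 76.4% of unheld and 12.8% of held loops had a boundary between the anchors, and from 100 to 200 kb 89.3% and 22.1%. The values were 94.8% and 47.1% from 200 to 300 kb, 98.5% and 77.0% from 300 to 500 kb, and 99.8% and 95.4% from 500 kb to 1 Mb.

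Unheld loops were long. Their median span was 435 kb (95% interval from order statistics 415 to 450 kb, quartiles 255 and 654 kb), and that of held loops was 170 kb (165 to 170 kb, quartiles 100 and 285 kb). On all 19 autosomes the median span of unheld loops was above the median of all loops in the range. The share of loops that were unheld was 3.22% (2.70 to 3.82%) from 50 to 100 kb and 3.87% (3.40 to 4.40%) from 100 to 200 kb. It was 8.32% (7.42 to 9.32%) from 200 to 300 kb, 18.7% (17.4 to 20.1%) from 300 to 500 kb and 42.3% (40.2 to 44.4%) from 500 kb to 1 Mb. The lowest classes have overlapping intervals, and each longer class lies above the interval of the class before it. Outside the range the share went on in the same way, with 47 unheld loops (2.84%) among 1654 shorter autosomal loops and 672 (81.3%) among 827 longer ones. A longer loop fits inside a given domain less readily, so the rise with span follows in part from the rule. The largest domain in the list is 2 Mb long, so no span in the range was beyond the largest domain. Many spans were, however, beyond the usual size, as the median outermost domain (inside no other) measured 530 to 755 kb across autosomes.

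Anchors in the list lie on coordinate grids of 2, 5 or 10 kb, which differ in the spans they hold. The 10 kb grid contributed 1024 unheld loops, the 5 kb grid 940 and the 2 kb grid 110. The unheld share was lower on finer grids, at 16.8% for 10 kb, 10.5% for 5 kb and 3.67% for 2 kb. Within a span class the grids were closer. From 100 to 200 kb, where every grid has loops, the shares were 4.02% at 10 kb, 3.68% at 5 kb and 4.01% at 2 kb, all inside one another's intervals. Above 300 kb the 10 kb grid had the higher share. It was 20.7% (18.8 to 22.9%) from 300 to 500 kb, and the 5 kb grid had 16.8% (15.1 to 18.7%). From 500 kb to 1 Mb the corresponding values were 44.6% (41.8 to 47.5%) and 39.2% (36.1 to 42.5%).

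**Figure D1:**
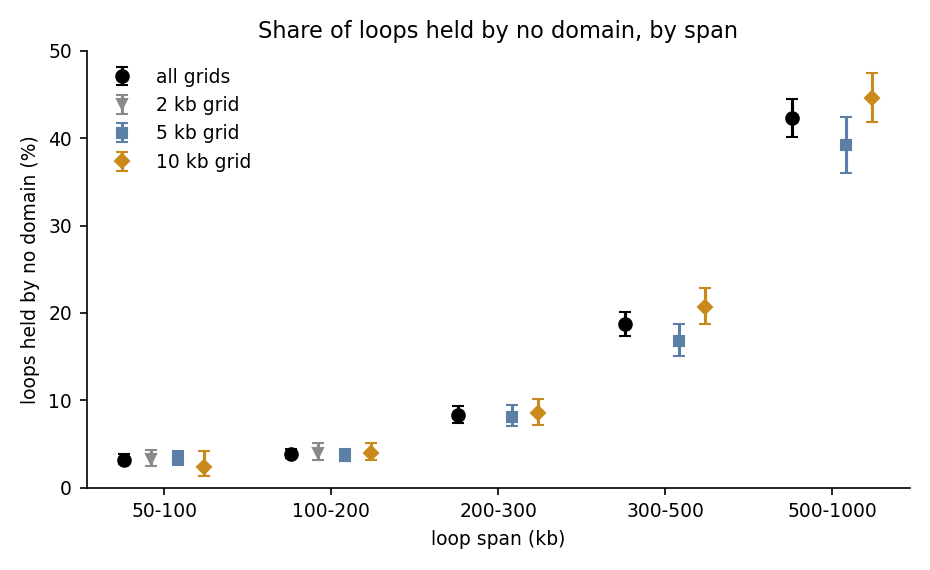
Share of autosomal loops held by no domain (vertical axis, percent) in 5 classes of loop span (horizontal axis, kb), for all loops and for each coordinate grid; bars are 95% Wilson intervals. The share for all loops goes from 3.22% in the shortest class to 42.3% in the longest, and from 300 to 500 kb the 10 kb grid, at 20.7%, lies above the 5 kb grid, at 16.8%.

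Most unheld loops were shorter than a domain at their own ends. For the 1959 unheld loops with both anchors inside some domain, the largest domain at either anchor had a median size of 970 kb, and it was 1000 kb for held loops. That domain was longer than the loop for 1715 of them (87.5%), so it was long enough to hold the loop but did not reach the other anchor. All 91 such loops of 50 to 100 kb and all 195 of 100 to 200 kb were shorter than this domain, as were 659 of 858 (76.8%) from 500 kb to 1 Mb. The smallest domain in the list is 100 kb long, so the count from 50 to 100 kb was fixed in advance. Class by class the domains at unheld loops were somewhat smaller. The medians were 940 kb against 960 kb for held loops from 50 to 100 kb, and 885 kb against 950 kb from 100 to 200 kb. They were 900 kb against 995 kb from 200 to 300 kb, 904 kb against 1050 kb from 300 to 500 kb, and 1030 kb against 1210 kb from 500 kb to 1 Mb. A larger domain holds a loop more readily, so this difference follows in part from the rule.

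How far an unheld loop reached out of a domain was measured as its overhang, the smallest total length by which its anchor midpoints lay outside any 1 domain. This distance belongs to the rule that chose the loops and is given as a description. The median overhang was 62.5 kb (53.3 to 70 kb), the quartiles were 15 and 170 kb, and the median share of the loop's span was 17.7%. Overhangs of at most 20 kb were found for 653 loops (31.5%, interval 29.5 to 33.5%), and 817 loops (39.4%) had more than 100 kb. Anchors are 10 kb wide, so an overhang of at most 5 kb places the boundary inside an anchor, and 173 loops (8.34%) were of this kind.

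At the edge of the rule, loops on either side were alike in position. The member with the least overhang, 666 bp, joined chr8:90586001-90596000 to chr8:90748001-90758000 with a span of 162 kb. Next came a loop of 330 kb from chr1:107962501-107972500 to chr1:108292501-108302500 and a loop of 260 kb from chr12:88052501-88062500 to chr12:88312501-88322500, each with 833 bp outside. Among held loops, 152 had an anchor midpoint exactly on the edge of the domain that held them best, and 434 had a midpoint within 5 kb of it. The first of these on chromosome 1 joined chr1:18350001-18360000 to chr1:19160001-19170000 over 810 kb. By comparison, the median held loop lay 114 kb inside its best domain.

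Short overhangs were lopsided. Of the 653 loops with at most 20 kb outside, 484 had only the right anchor outside, 156 only the left and 13 both, where right means the higher coordinate. Over all unheld loops the corresponding counts were 1212, 704 and 158. Held loops were uneven too, by another measure. Their right anchor lay within 20 kb of a domain end in 32.2% and their left anchor within 20 kb of a start in 18.4%. In unheld loops these shares were 41.1% and 24.4%. The overhang counts changed when the lists were placed differently against each other. With all domains moved by 10 kb to higher coordinates, the counts up to 20 kb were 272 for the right anchor alone and 292 for the left. With a move of 20 kb they were 168 and 504, so the direction turned. A move of 10 kb to lower coordinates gave 777 for the right and 107 for the left. The total number of unheld loops was 2074 as deposited, 1957 and 2099 with the moves of 10 and 20 kb to higher coordinates, and 2445 with the move to lower ones. A move to higher coordinates in itself takes away short right overhangs and adds left ones, so the cause of the asymmetry was not tested by these moves. They were chosen after the data were seen, and whether the lists use the same convention for the edges of a bin is not stated.

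**Figure D2:**
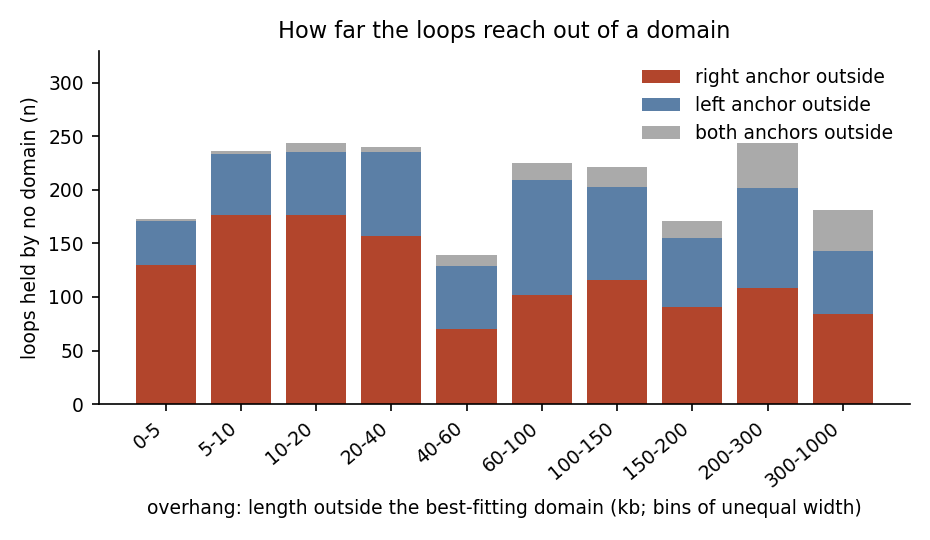
Number of unheld loops (vertical axis) by overhang in kb (horizontal axis, bins of unequal width), coloured by which anchor lay outside the domain that left the least outside. Up to 20 kb the right anchor alone was outside in 484 loops and the left alone in 156. In every longer bin but that from 60 to 100 kb, with 102 and 107, the right anchor was also the more frequent, by a smaller margin from 40 kb on.

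The domains at the ends of an unheld loop stood in 4 different relations. In 1206 loops (58.1%) a domain at the left anchor overlapped a domain at the right anchor without either reaching both anchors. In 417 loops (20.1%) such domains met at a shared edge, and in 336 (16.2%) they were separated. The remaining 115 loops (5.54%) had an anchor in no domain. Overlap was usually slight: its median was 10 kb, and it was at most 20 kb in 905 of the 1206 loops (75.04%). Overlaps of more than 100 kb were found for 164 loops (13.6%). By the rule such an overlap lies wholly between the anchors, so the span of the loop limits its length. In the list as a whole, 4444 of 4875 neighbouring pairs of outermost domains (91.2%) overlap, by a median of 250 kb. That value has no such limit, so the medians are not measured alike. An outermost domain is one that lies inside no other.

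These relations differed in span and reach. Loops over a shared edge had a median span of 380 kb and a median overhang of 37.5 kb, and loops over an overlap had 412 kb and 42.5 kb. Loops between separated domains had a median span of 655 kb (630 to 690 kb) and a median overhang of 189 kb (152 to 215 kb). The separated domains lay a median of 168 kb apart and at most 900 kb. Whole outermost domains were skipped by 490 unheld loops (23.6%): 428 passed over 1 such domain, 51 over 2, 10 over 3 and 1 over 4. Loops that skipped none had a median span of 360 kb, and those that skipped 1 had 650 kb.

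Places that lie inside no domain at all are the strictest breaks of the list. Between domains the autosomes have 431 of them, of which 348 are points where domains abut and 83 are gaps. Stretches before the first or past the last domain of a chromosome are not among the 431. In 613 unheld loops (29.6%) some point between the anchor midpoints was inside no domain. These were 498 loops with both anchors in domains and all 115 with an anchor outside. For the other 1461 an unbroken chain of overlapping domains ran from anchor to anchor. By construction no held loop had such a point. Of the 348 abutting points, 194 (55.7%) had at least 1 unheld loop over them, and of the 83 gaps 26 (31.3%) had a loop over their whole length. The most loops over a single break was 10.

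Loops outside domains formed a small group of their own. In 78 unheld loops neither anchor was in a domain, and in 37 only 1 was. The median span of these 115 loops was 176 kb (150 to 225 kb), far below that of the other relations, and 26.1% lay on the 2 kb grid, against 1.79 to 5.75% elsewhere. Their median overhang was 228 kb. For the 78 loops with no domain at either end the overhang is a distance to a domain and not a reach over a boundary. These 78 loops fell into 20 separate stretches. Some of the stretches lie past the last domain of their chromosome, such as chr16:98022001-98298000 with 5 loops. The fullest, chr1:84947501-85332000, held 12 loops of 80 to 355 kb. Chromosome 4 had 24 of the 78, with 11 in chr4:144990001-145766000 and 11 in chr4:146627501-147172500. Chromosome 12 had 10, of which 8 lay in chr12:25140001-25387500. The members with the largest overhangs were of this kind, led by the loop from chr12:18812501-18822500 to chr12:19137501-19147500, which lay 972 kb from full containment. The runners-up were a loop of 84 kb from chr4:145672001-145682000 to chr4:145756001-145766000, at 801 kb, and a loop of 640 kb from chr4:145070001-145080000 to chr4:145710001-145720000, at 755 kb. Whether sequence in these stretches is mappable in full was not tested. Among loops with both anchors in domains the largest overhang was 608 kb, for a loop of 920 kb from chr1:87862501-87872500 to chr1:88782501-88792500.

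Autosomes differed in how many of their loops were unheld. The share was 11.6% ± 2.74 (SD over 19 autosomes), from 5.87% (4.74 to 7.25%) on chromosome 11 to 16.3% (13.6 to 19.4%) on chromosome 19. Chromosomes 5, 4 and 9 followed at 16.1, 15.2 and 15.1%, and chromosomes 6 and 7 were low at 7.73 and 8.57%. The intervals of the highest and the lowest chromosomes do not meet, but those of most chromosomes in between do. The order was similar with span taken into account. From the shares of all autosomes in 12 span classes, chromosome 11 would have had 131 unheld loops and had 80, a ratio of 0.61. Chromosome 6 had a ratio of 0.62, and chromosomes 4, 5 and 19 had 1.50, 1.46 and 1.46. Outermost domains had a median size of 530 kb on chromosome 19 and 555 kb on chromosome 5, the smallest among the autosomes, and of 735 kb on chromosome 11. Chromosome 1 had the largest, at 755 kb, with an unheld ratio of 0.88. On all 19 autosomes the share was higher among loops of 300 kb or more, at 16.4 to 45.5%, than among shorter ones, at 2.76 to 7.53%.

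**Figure D3:**
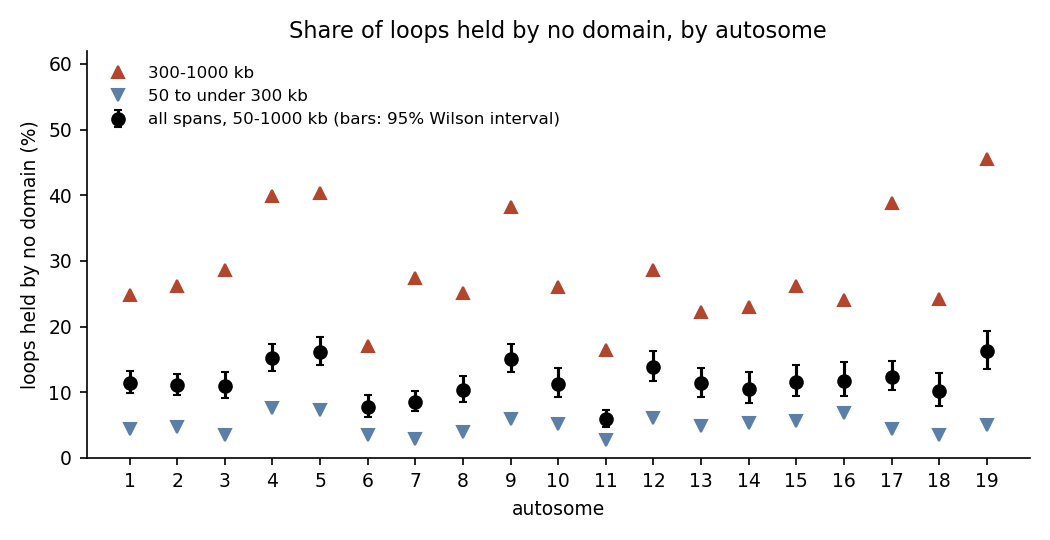
Share of loops held by no domain (vertical axis, percent) on each of the 19 autosomes (horizontal axis), for all spans with 95% Wilson intervals and separately below and from 300 kb. Chromosome 11 is lowest at 5.87% and chromosome 19 highest at 16.3%, and the longer loops lie above the shorter ones on every autosome.

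Sharing of anchors with other loops was not used to choose the group. Of the 2074 unheld loops, 1876 (90.5%, interval 89.1 to 91.6%) overlapped an anchor of another loop, compared with 14799 of 15980 held loops (92.6%, 92.2 to 93.0%). Within span classes the values were near each other: 92.6% and 93.4% from 200 to 300 kb, 91.8% and 92.9% from 300 to 500 kb, and 88.3% and 90.2% from 500 kb to 1 Mb. Over all spans the share of unheld loops was the lower on 13 of 19 autosomes, and it ranged from 80.3 to 95.2%. Within span classes the direction was mixed. The unheld share was the lower on 8 of 12 autosomes with enough loops from 50 to 100 kb and on 8 of 19 from 100 to 200 kb. It was the lower on 8 of 18 from 200 to 300 kb, 9 of 19 from 300 to 500 kb and 12 of 19 from 500 kb to 1 Mb. Both anchors were shared in 59.6% of unheld and 60.1% of held loops. Within each of the 5 span classes the intervals of unheld and held loops overlapped for both measures.

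Most unheld loops met a held loop at an anchor. When overlapping anchors were merged into anchor regions, 1633 unheld loops (78.7%) had an anchor region in common with a loop that a domain holds, and 1474 (71.1%) with another loop that none holds. Both applied to 1231, only the first to 402, only the second to 243 and neither to 198. The 3103 anchor regions with an unheld loop had mostly just 1 (2402 regions, 77.4%), while 222 had 3 or more and 28 had 5 or more. In 1251 of the regions all loops were unheld loops of this range. The other loops at these anchors ran to the same side as the unheld loop in 64.8% of 9828 pairs, against 73.3% at the anchors of held loops. These are counts over pairs, so regions with many loops weigh more. At an anchor near a domain edge, a loop out of the domain is unheld more readily than a loop into it. The difference may therefore follow in part from the rule. The groups also differ in span, which was not matched here.

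A further measure was whether an anchor region between the ends of a loop had listed loops, called steps here, to both of them. This was so for 323 unheld loops (15.6%) and 2223 held loops (13.9%), but the groups differ in span. From 200 to 300 kb the shares were 14.0% (10.4 to 18.7%) of unheld and 21.8% (20.4 to 23.4%) of held loops. From 300 to 500 kb they were 17.9% (14.97 to 21.2%) and 24.5% (22.8 to 26.2%), and from 500 kb to 1 Mb 17.4% (15.02 to 20.1%) and 21.5% (19.2 to 23.9%). In the last class the intervals touch, and below 200 kb the intervals of both groups overlapped widely. The unheld value was the lower on 12 of 18 autosomes with enough loops from 200 to 300 kb, on 16 of 19 from 300 to 500 kb and on 15 of 19 from 500 kb to 1 Mb. Over all spans from 200 kb it was 15.9% (12.9 to 19.5%) for overhangs up to 20 kb and 17.4% (15.4 to 19.6%) for longer ones, with overlapping intervals, and 22.8% (21.8 to 23.8%) for held loops. In the 323 cases, the steps were both held by domains for 68 loops, 1 was held for 236 and none for 19.

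**Figure D4:**
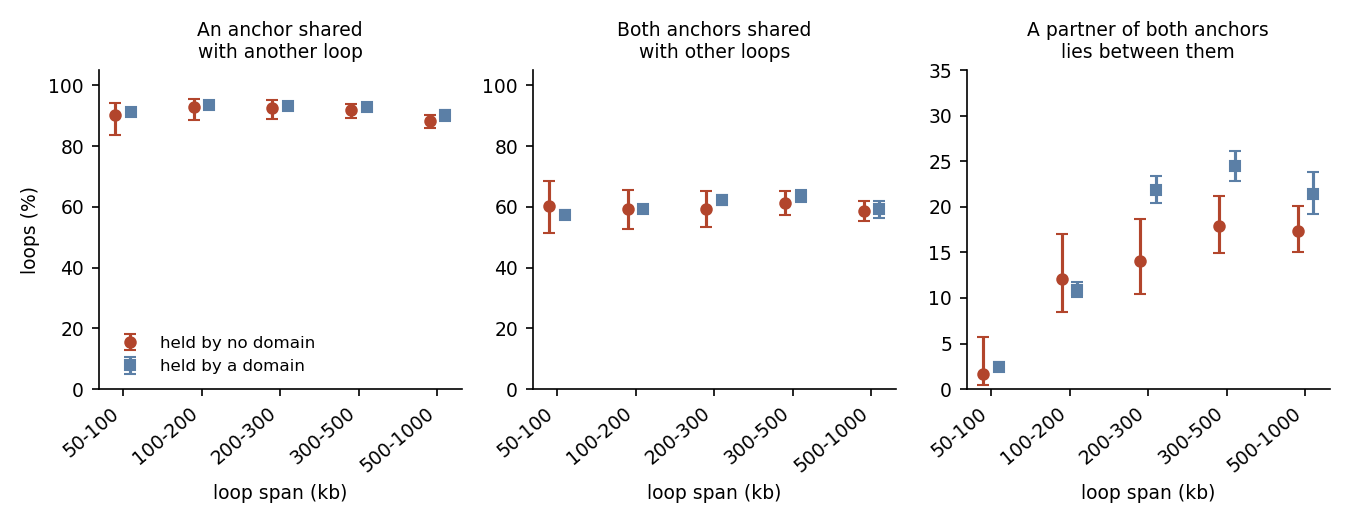
Percentage of loops (vertical axes) in 5 span classes (horizontal axes, kb) with an anchor shared with another loop, with both anchors shared, and with a partner region of both anchors lying between them; bars are 95% Wilson intervals. Sharing is close between groups in every class, whereas a partner in between was found for 14.0% of unheld and 21.8% of held loops from 200 to 300 kb; no test was made.

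The anchor regions with the most unheld loops lay at domain edges. A loop that runs out of a domain from its edge is readily unheld, so this position follows in part from the rule. No gene is named for these regions or for other places, since no annotation of the files' genome build, mm9, was used here. The region chr4:130496001-130522500 had 13 loops. Its 5 held loops ran to lower coordinates over 48 to 165 kb, and its 8 unheld loops all ran to higher coordinates, to 8 partner regions at spans of 75 to 875 kb. The overhangs of these 8 loops were only 7.5 to 15 kb. The region sits at the right end of its domains, the longest of which, chr4:129945001-130525000, is 580 kb long. The domain of 860 kb at chr4:130525001-131385000 starts just past it, and 7 of the 8 partner regions are inside that domain.

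The region chr9:60080001-60102500 had 11 loops, of which 8 were unheld. Here 3 unheld loops ran to lower and 5 to higher coordinates, over 250 to 615 kb. A single domain lay over it, chr9:60080001-60440000, whose start falls on the first base of the region. Overhangs were 5 to 268 kb, and the 3 held loops all ran into the domain over 32 to 305 kb. The region sent unheld loops both ways.

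The next region and another tied with it ran only to lower coordinates. In chr4:106827501-106842500 all 7 loops were unheld, with spans of 170 to 550 kb to 6 partner regions and overhangs of 3.33 to 150 kb. The domain over that region, chr4:106830001-107070000, starts 5 kb before the region's midpoint, and every loop of the region runs away from it. In chr10:80620001-80642500, 7 of 9 loops were unheld, with spans of 70 to 860 kb, and their median overhang was 2.5 kb. The 2 held loops there, of 30 and 120 kb, also ran to lower coordinates. Short overhangs prevailed at 3 of these 4 regions, with medians of 7.5, 10 and 2.5 kb, and the median at the chromosome 9 region was 50 kb.

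Boundaries of outermost domains within 20 kb of each other were joined into 5622 places, to see where unheld loops concentrate. No unheld loop ran over 4113 of them (73.2%), 1 to 4 over 1401 and 5 or more over 108. Of the 1766 places that no domain runs over from side to side, 837 (47.4%) had an unheld loop, compared with 672 of 3856 other places (17.4%). A domain that runs over a place can hold the loops there, so this difference follows in part from the rule.

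The most loops over a place was 10, at 2 places on chromosome 4. At the boundary at position 130525000, the 10 loops came from 3 anchor regions on the left and went to 9 on the right, with spans of 75 to 940 kb. Of these, 8 joined domains that abut and 2 joined domains that are separated. They included the 8 unheld loops of the region chr4:130496001-130522500 described above, and the median overhang over all 10 was only 8.75 kb. At positions 106830000 to 106831666 on the same chromosome the larger number of regions lay on the other side, with 7 on the left and 3 on the right. The median span was 485 kb and the median overhang 90 kb. Of its 10 loops, 5 joined domains that overlap and 5 joined domains that are separated. In 9 of these 10 loops the ends had a common partner region, which did not have to lie between them as the steps above did. At the boundary at position 130525000 this held for 4 of the 10 loops. Over all spans a common partner region was found for 28.59% of unheld and 35.01% of held loops. All 7 loops of the region chr4:106827501-106842500 were among the 10 at positions 106830000 to 106831666, with right midpoints 1.67 to 6.67 kb past the middle of the place. A place at 106431666 to 106437500 had 9 loops, of which 5 were also among those 10. The remaining 2 places, at 174075000 to 174080000 and at 174105000 on chromosome 2, had the same 9 loops over them, which joined 5 regions on the left to 4 on the right over 185 to 810 kb.

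**Figure D5:**
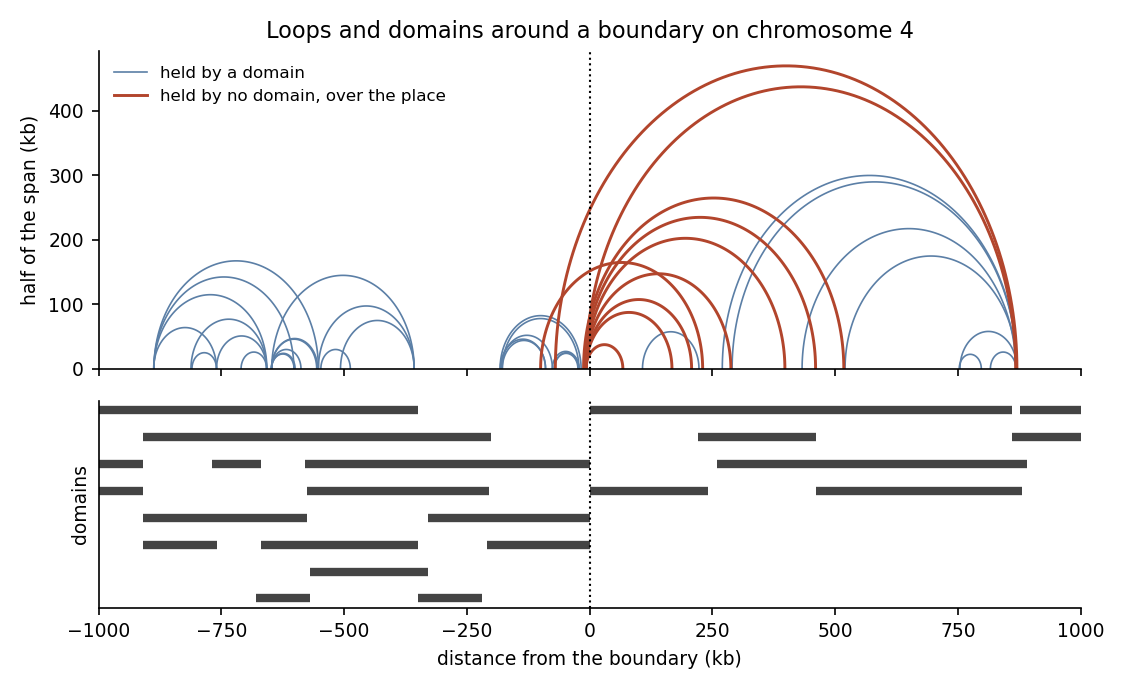
Loops (top, arcs whose height grows with the span) and domains (bottom, bars) within 1 Mb of the boundary at position 130525000 on chromosome 4; the horizontal axis is distance from that boundary in kb, and unheld loops that do not run over it are not drawn. The 10 unheld loops start from 3 anchor regions at or left of the dotted line and end in 9 regions to its right, and no domain bar passes the line. Their median overhang is 8.75 kb.

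Linked through common anchor regions, the unheld loops formed 1108 networks, of which 688 were single loops. There were 78 networks of 5 or more unheld loops, with 523 loops between them. The largest had 15 loops among 15 anchor regions along 2.42 Mb at chr12:102320001-104737500. The second was more compact, with 14 loops among 10 regions in the 0.76 Mb of chr4:106280001-107040000, and contains the places at 106830000 and 106431666. The third had 13 loops among 13 regions at chr9:48300001-50480000.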

How the data were processed

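Micro-C was made from 9 untreated and 9 auxin-treated samples. The authors deposited a single loop list and a single domain list, neither of which names a sample. Their values are coordinates in bp without score, depth or sample. The build is mm9, per the submitters' processing notes. On 8 of 20 chromosomes coordinates run past the last gene of the GRCm38 table at hand, so that table and its sequences were not used. Callers, resolutions and the samples behind each list are not given in the sources used here. Filtering and merging of the domains is named in the title of their file. Columns of per-sample values without a sample numbered 0.

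Python 3.11.15, numpy 2.4.6, pandas 2.3.3, scipy 1.17.1 and matplotlib 3.10.9 were used. Starts were read as counted from 0 and are printed from 1. Anchor sharing means overlap by at least 1 bp. An autosome entered a direction count with at least 5 loops in each group. The 10 kb grid holds loops with both anchor starts on multiples of 10 kb, the 5 kb grid those with an anchor 2500 or 7500 bp past one, and the 2 kb grid the rest. Named regions were the 5 places run over by the most unheld loops, the 3 anchor regions with the most (and ties), and the 3 largest and 3 smallest overhangs; the largest overhang among loops with both anchors in domains was added after its value was seen. The group and these rules were chosen with earlier results of these data known. Overhang and sharing were tested on simulated data.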

Additional observations from a re-analysis of the deposited data

How the results depend on the processing

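The size of the unheld group depended on how strictly a domain must hold a loop. The share, 11.5% in the main setting, was 13.5% with whole anchors inside, and 9.19, 7.87 and 6.48% with domains widened by 10, 20 and 40 kb at each end. It was 39.7% when only domains that hold no other were used, which by construction drops the large domains. It was 8.91% for spans of 100 to 500 kb, 16.8% for the 10 kb grid alone and 10.5% for 5 kb alone. Domains moved by 10 kb to lower coordinates gave 13.5% and to higher coordinates 10.8%. The median span, 435 kb, was 400 kb with whole anchors, 500 kb with domains widened by 20 kb, 310 kb for 100 to 500 kb and 390 kb on the 5 kb grid. Anchor sharing, 90.5%, was 89.0% with domains widened by 20 kb, 64.5% when coordinates had to be identical and 95.8% when a distance of 10 kb was allowed. The median overhang, 62.5 kb, was 42.5 kb with whole anchors, 37.5 kb on the 5 kb grid and 52.5 kb for loops with both anchors in domains. The cause was not tested for any of these beyond the construction of the setting. Counting each contact once, adding X and leaving out chromosome 17 moved no value they were run for beyond its 95% interval. The moves of the domain list and the limit to loops with both anchors in domains were added after the data were seen. No paired analysis was possible because neither file has per-sample values. The depth of the libraries is unknown, and a contact below the callers' thresholds is missing from the list.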

Other observations

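On the X chromosome, outside the group described above, 27 of 359 loops of 50 kb to 1 Mb were held by no domain, a share of 7.52% (95% Wilson interval 5.22 to 10.7%). The autosomes ranged from 5.87 to 16.3%. The unheld X loops had a median span of 340 kb and a median overhang of 70 kb. Of these 27 loops, 15 (55.6%) shared an anchor with another loop, as did 258 of 332 held X loops (77.7%). On the autosomes the share among unheld loops was never below 80.3%. With a single X and 27 loops no comparison was tested.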
